A study of Mus musculus with 10 samples.

Results

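The genes of MHC class I presentation were followed in single phagocytes of the mouse retina and optic nerve: the heavy chains H2-K1, H2-D1, H2-Q7 and H2-T23, the light chain B2m, the peptide transporter genes Tap1 and Tap2, the loading factor Tapbp, and the proteasome subunits Psmb8 and Psmb9. These 10 genes were chosen by name, and all 10 were found among the 16620 gene entries that held a transcript. Microglia and macrophages came from wild-type mice of strain 129S1/SvlmJ (labelled P56), of both sexes and 10 weeks old at collection. Uninjured retina and uninjured optic nerve were the controls. Injured retina and injured optic nerve came from mice whose optic nerve, the bundle of retinal ganglion cell axons, had been crushed at 8 weeks of age, 2 weeks before collection. The labels list 10 samples, but the 4 injured retina samples are held as 2 pools, so 8 libraries could be told apart, 2 per group. Nothing states which animals went into a sample or pool, so p-values measure the spread between these libraries, which may in part be technical.

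Class I molecules display peptides from a cell's own proteins to CD8 T cells. A polymorphic heavy chain pairs with beta-2 microglobulin, the product of B2m, and cannot be stably displayed without it. Peptides are cut by proteasomes that can carry the interferon-inducible subunits encoded by Psmb8 and Psmb9, are pumped into the endoplasmic reticulum by the Tap1 and Tap2 heterodimer, and are fitted to the heavy chain with the help of tapasin, the product of Tapbp. Resting microglia are known for low class I display, which interferons raise.

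Of the 10 genes, 9 lie within 2.12 Mb of chromosome 17 (GRCm38, 33915899 to 36032855), the mouse major histocompatibility complex, and all are protein-coding in GENCODE M21. The classical heavy chain genes H2-K1 (chromosome 17, 33996017 to 34000347, minus strand) and H2-D1 (35262730 to 35267499, plus strand) encode the chains that present most peptides. The nonclassical H2-Q7 (35439155 to 35443773, plus strand) and H2-T23 (36029773 to 36032855, minus strand) encode Qa-2 and Qa-1 chains, and Qa-1 is a ligand of inhibitory receptors on NK and T cells. Psmb9 (34181987 to 34187764, minus strand), Tap1 (34187553 to 34197225, plus strand), Psmb8 (34197721 to 34201454, plus strand) and Tap2 (34203527 to 34216321, plus strand) form a single cluster, and Tapbp (33915899 to 33929292, plus strand) lies on the other side of H2-K1. B2m stands alone on chromosome 2 (122147686 to 122153083, plus strand). Psmb9 and Tap1 overlap head to head, and the start sites in RefSeq leave 225 bases between them. B2m, Tapbp, Tap2, Psmb8 and H2-T23 also overlap other or antisense genes, and whether counting used strand is not given in the sources used here. H2-Q7 has close copies nearby, H2-Q6 among them, so that its reads may be shared with them.

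The proximal promoters of the 4 members whose values are described first are shown because class I genes are textbook targets of factors that bind short motifs just before the start site. Sequences are from RefSeq on GRCm38.p6, read 5′ to 3′ in the sense of the gene, and 9 of the 10 members had an entry (all except Tap2). Capitals mark, in order, GGGATTCCC (a kappa B motif), TTTCNNTTC or TTTCNNTTT (interferon response motifs), TGACG (a CRE-like motif) and CCAAT, each on either strand. No 2 of these motifs overlap in the stretches shown.
H2-K1, chr17:34000348-34000467, minus strand: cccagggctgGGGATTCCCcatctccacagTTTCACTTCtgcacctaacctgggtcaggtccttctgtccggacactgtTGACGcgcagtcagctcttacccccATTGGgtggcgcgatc
H2-Q7, chr17:35439013-35439132, plus strand: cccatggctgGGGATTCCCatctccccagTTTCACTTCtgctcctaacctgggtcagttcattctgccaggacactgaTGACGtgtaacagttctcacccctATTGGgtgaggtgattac
B2m, chr2:122147539-122147658, plus strand: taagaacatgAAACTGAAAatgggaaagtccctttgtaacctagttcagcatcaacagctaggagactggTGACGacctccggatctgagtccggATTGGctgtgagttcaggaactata
H2-D1, chr17:35262924-35262952, plus strand: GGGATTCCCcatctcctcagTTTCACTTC

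The H2-D1 stretch is kept short because GENCODE starts that gene at 35262730, before the RefSeq start at 35263094, so that the region may be transcribed. Over 120 bases anchored at the same motif, H2-K1 and H2-D1 were identical at 107 of 120 positions (89.2%), and H2-Q7 was 82.8% identical to each over 122 aligned columns. B2m has no kappa B match, so its 120 bases were anchored at its interferon motif instead. From that unlike anchor it was 49.7% to 53.2% identical to the 3 heavy chains, over 132 to 143 aligned columns. In the 250 bases before the start, the kappa B motif occurred in H2-K1, H2-D1 and H2-Q7 and in 0.302% of all 32807 RefSeq promoters. The interferon motif TTTCNNTTC was found in the same 3 members and 6.31% of promoters, and TTTCNNTTT in B2m and H2-T23 and 9.37%. TGACG was found in 6 of the 9 members and 17.8% of promoters, and CCAAT in 8 of 9 and 33.8%. These matches describe the letters of the reference only.

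Across the series 1168 cells held 7920570 UMIs (unique molecular identifiers, each counting 1 captured transcript). Totals ran from 56838 UMIs in uninjured retina library 6 to 5234954 in injured optic nerve library 3, and median depth per cell from 1078 to 12989 UMIs. Microglia markers had UMIs for 11 of 11 genes in each group, and summed to 11219 to 11704 CPM in injured and 20898 to 24033 CPM in uninjured retina, 12999 to 15045 CPM in injured and 10164 to 12185 CPM in uninjured optic nerve, where CPM is the usual library-scaled count per 1000000 UMIs. The 8 macrophage markers summed to 56 to 231 CPM in retina, where Cd163, Lyve1, Pf4 and Cbr2 were at 0 in both groups, and to 642 to 4324 CPM in optic nerve. Cells with a UMI of Cd3d or Cd3e, subunits of the T cell receptor complex (called Cd3 cells below), made up 18 of 109 cells (16.5%) of injured retina pool 1 and 2 and 23 of 57 (40.4%) of pool 3 and 4. Monocyte, dendritic and neutrophil markers summed to 38.6 to 42.2, 21.1 to 22.5 and 6.4 to 35.9 CPM in injured retina and were at 0 in uninjured retina. Monocyte markers in optic nerve summed to 9.4 to 21.97 CPM in injured and 0 to 56.9 CPM in uninjured libraries. Dendritic markers there summed to 5.2 to 9.4 CPM in injured and 11.9 to 14.2 CPM in uninjured libraries. Neutrophil markers there summed to 3.1 to 19.5 CPM in injured and 11.9 to 751.4 CPM in uninjured libraries. Cd3 cells numbered 0 of 43 in uninjured retina, and 1 each in uninjured optic nerve 2 and injured optic nerve 3. The 19 T and NK markers summed to 357 to 942 CPM in injured retina (15 of 19 with a UMI), 0 to 7 CPM in uninjured retina and 12 to 34 CPM in optic nerve. Of these, Trac, Trbc1, Trbc2 and Gzmb were at 0 in injured retina. A T cell without such a UMI stays among the other cells. Each level below is therefore also given without Cd3 cells where it matters. In summed cells, fewer cells that express a gene and less RNA per cell cannot be told apart.

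B2m rose after crush in the retina. It stood at 2305 CPM in injured pool 1 and 2 and at 3014 CPM in pool 3 and 4, against 1379.7 CPM in uninjured library 5 and 1108 CPM in library 6. The groups did not overlap, and their means were 2659 ± 501 CPM and 1244 ± 192 CPM (SD, n = 2 each), a ratio of 2.14. By edgeR's quasi-likelihood test on summed counts the log2 fold change was 1.09 ± 0.30 (SE, adjusted p = 0.026). The same gene stood at 2336 and 3288 CPM in the injured pools once Cd3 cells were left out, and the log2 fold change was then 1.21 ± 0.30 (edgeR adjusted p = 0.016, with 19.0% of 2986 genes called). Microglia markers were lower and T and NK markers higher in the same injured pools. Monocyte, dendritic and neutrophil markers had UMIs there and 0 in uninjured retina, whose library 6 allows up to 52.8 CPM. The part of makeup beyond Cd3 cells was not tested. The call was lost when either injured pool was left out (edgeR adjusted p = 0.076 without pool 1 and 2, 0.113 without pool 3 and 4).

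**Figure D1:**
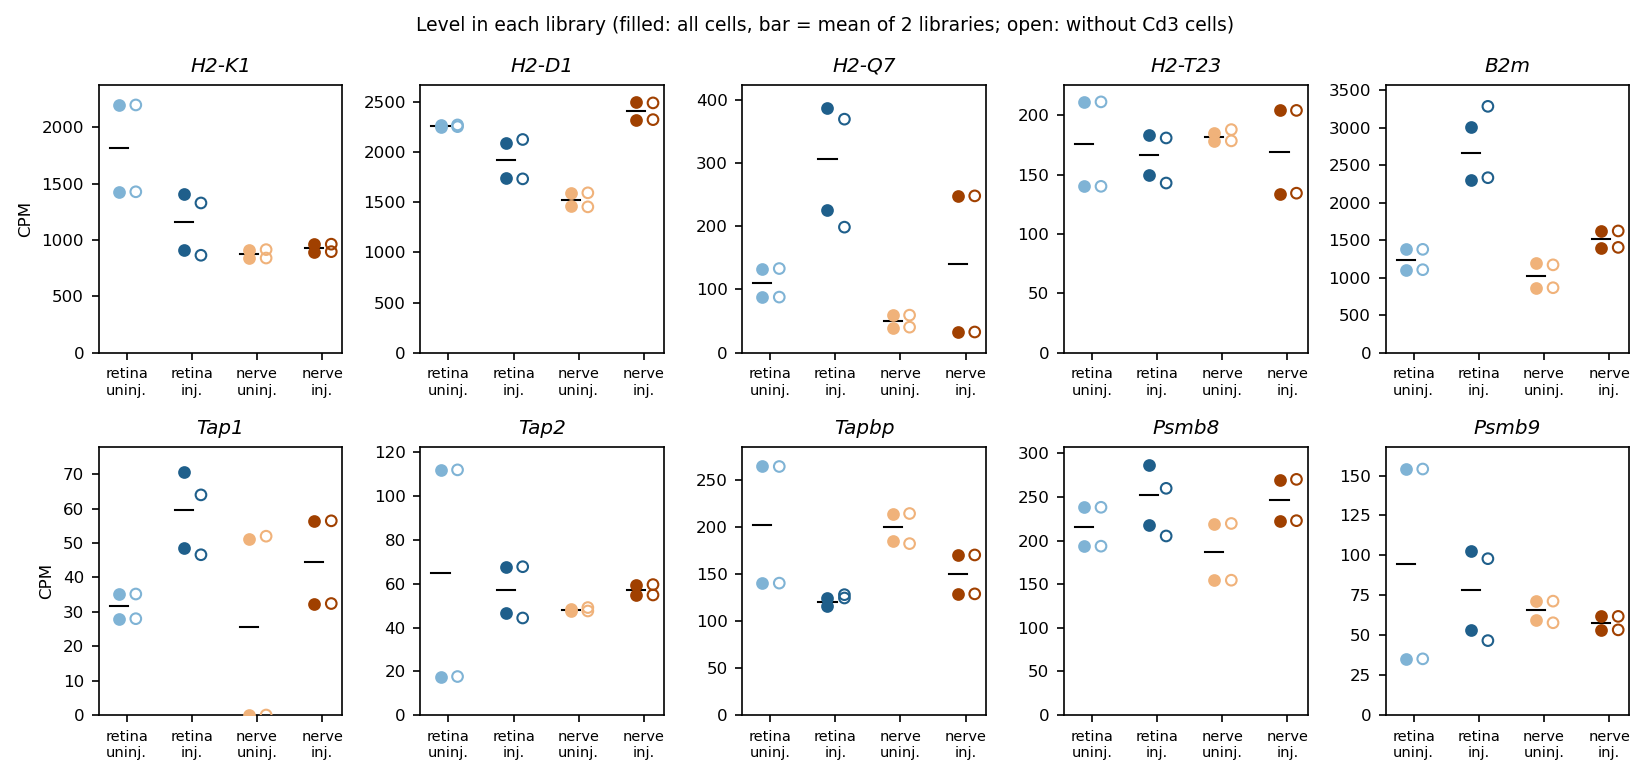
CPM of each of the 10 genes (y axis, linear from 0) in the 2 libraries of each group (x axis). Filled points are all cells, the bar is their mean, and open points leave out Cd3 cells. B2m and H2-Q7 are higher in each injured retina pool than in each uninjured retina library, with and without Cd3 cells.

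H2-Q7 also rose in the retina. Injured pools stood at 225 and 386 CPM (320 and 120 UMIs), and uninjured libraries 5 and 6 at 133 and 88.0 CPM (19 and 5 UMIs). Every injured value lay above every uninjured one, and the means gave a ratio of 2.77. The log2 fold change was 1.33 ± 0.40 (edgeR adjusted p = 0.038). Without Cd3 cells the pools stood at 198 and 369 CPM, and the change of 1.23 ± 0.42 did not pass (edgeR adjusted p = 0.063). The call was also lost without pool 3 and 4 (edgeR adjusted p = 0.062) and without uninjured library 6 (0.066).

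The other 8 members did not pass in retina. Of the 10 members 2 rose and 0 fell, where 9.99% of the 3312 genes tested rose and 9.72% fell (19.7% called in all). The members' median log2 fold change was -0.11, and that of all genes tested 0.07. In CPM 3 members (B2m, Tap1 and H2-Q7) were higher in both injured pools than in both uninjured libraries and 3 (H2-K1, H2-D1 and Tapbp) were lower, where 32.2% and 29.2% of genes were, and these counts were the same without Cd3 cells. H2-K1 was at 916 and 1409 CPM in the injured pools and at 1429 and 2199 CPM in uninjured libraries (log2 fold change -0.59 ± 0.30, edgeR adjusted p = 0.18). H2-D1 was at 1742 and 2094 CPM against 2269 and 2252 CPM (-0.22 ± 0.27, edgeR adjusted p = 0.60). For each of these classical heavy chains the injured pools lay below both uninjured libraries, a direction opposite to that of B2m, although neither test passed. H2-T23, the Qa-1 heavy chain, had overlapping groups at 149 and 183 CPM against 140.1 and 211 CPM.

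The peptide supply genes gave few UMIs in uninjured retina, and none of them passed. Tap1 was at 48.6 and 70.8 CPM in injured pools and at 28.0 and 35.2 CPM in uninjured libraries, where 4 and 2 UMIs were counted (log2 fold change 0.87 ± 0.58, edgeR adjusted p = 0.32). Its transporter partner Tap2 differed widely within uninjured retina, with 112 CPM in library 5 and 17.6 CPM (1 UMI) in library 6, on either side of the injured pools at 46.4 and 67.5 CPM. Psmb9 showed the same spread, with 154 and 35.2 CPM (22 and 2 UMIs) in uninjured libraries around 53.5 and 103 CPM in injured pools. Library 6 had only 12 cells, and 3 UMIs there amount to 52.8 CPM. Without library 5 the log2 fold changes of Tap2 and Psmb9 turned from -0.63 and -0.69 to 1.91 and 1.34, and neither passed (edgeR adjusted p = 0.34 and 0.48). Psmb8, which encodes another catalytic subunit of the immunoproteasome, was at 218 and 286 CPM against 238 and 194 CPM (0.16 ± 0.31, edgeR adjusted p = 0.75). Tapbp was at 124 and 116 CPM against 140.1 and 264 CPM (-0.60 ± 0.34, edgeR adjusted p = 0.24).

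**Figure D2:**
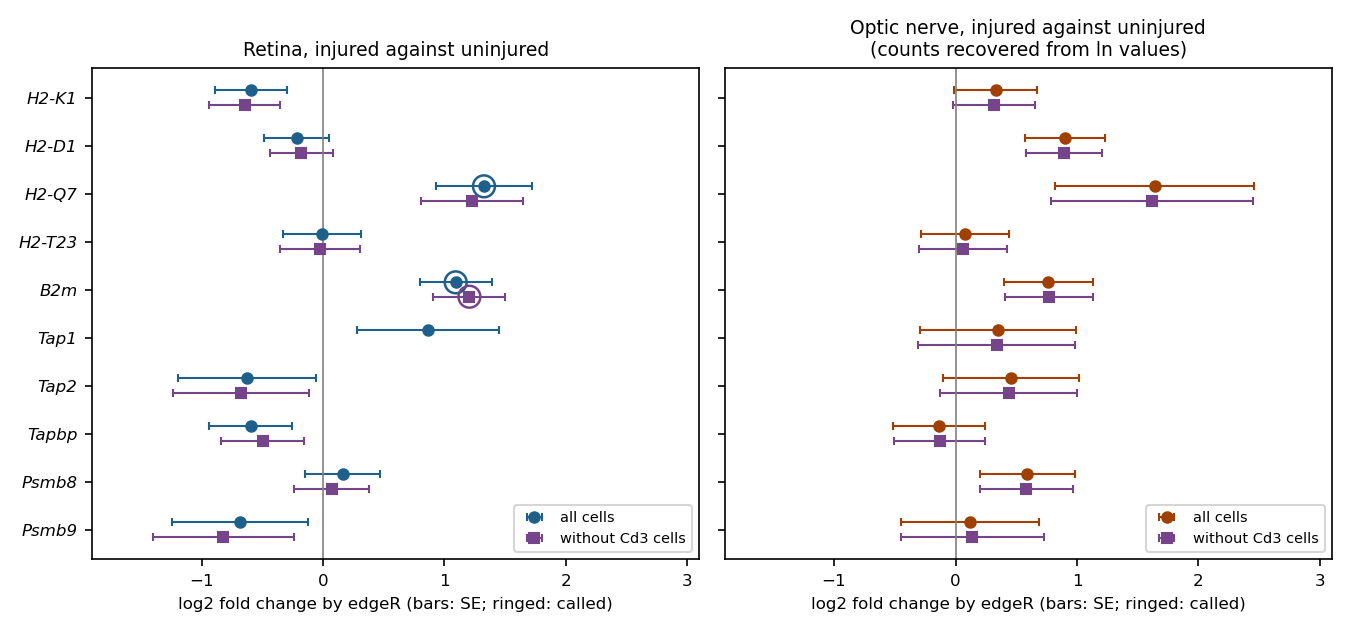
log2 fold change by edgeR with its SE (x axis) for each member (y axis), in retina (left) and optic nerve (right, from counts recovered from the deposited ln values), for all cells and without Cd3 cells. Ringed points passed at an adjusted p of 0.05: B2m and H2-Q7 in retina with all cells, B2m alone without Cd3 cells, and none in optic nerve. Tap1 has no point without Cd3 cells in retina because it fell under the count filter.

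The make-up of class I transcripts was also described by shares and ratios, which use the same counts as the B2m call. B2m made up 39.6% and 39.0% of the UMIs of the 10 members in injured pools, and 22.9% and 17.3% in uninjured libraries. Per UMI of H2-K1 and H2-D1 together there were 0.867 UMIs of B2m in pool 1 and 2, 0.860 in pool 3 and 4, 0.373 in library 5 and 0.249 in library 6. Without Cd3 cells the pools had 0.899 and 0.952. In optic nerve the ratio was 0.505 and 0.407 in injured libraries 1 and 3 and 0.520 and 0.346 in uninjured libraries 2 and 4, so those groups overlapped. B2m, H2-K1 and H2-D1 together held 81.6% to 86.8% of the members' UMIs in each of the 8 libraries. These ratios are given as a description, with no test.

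**Figure D3:**
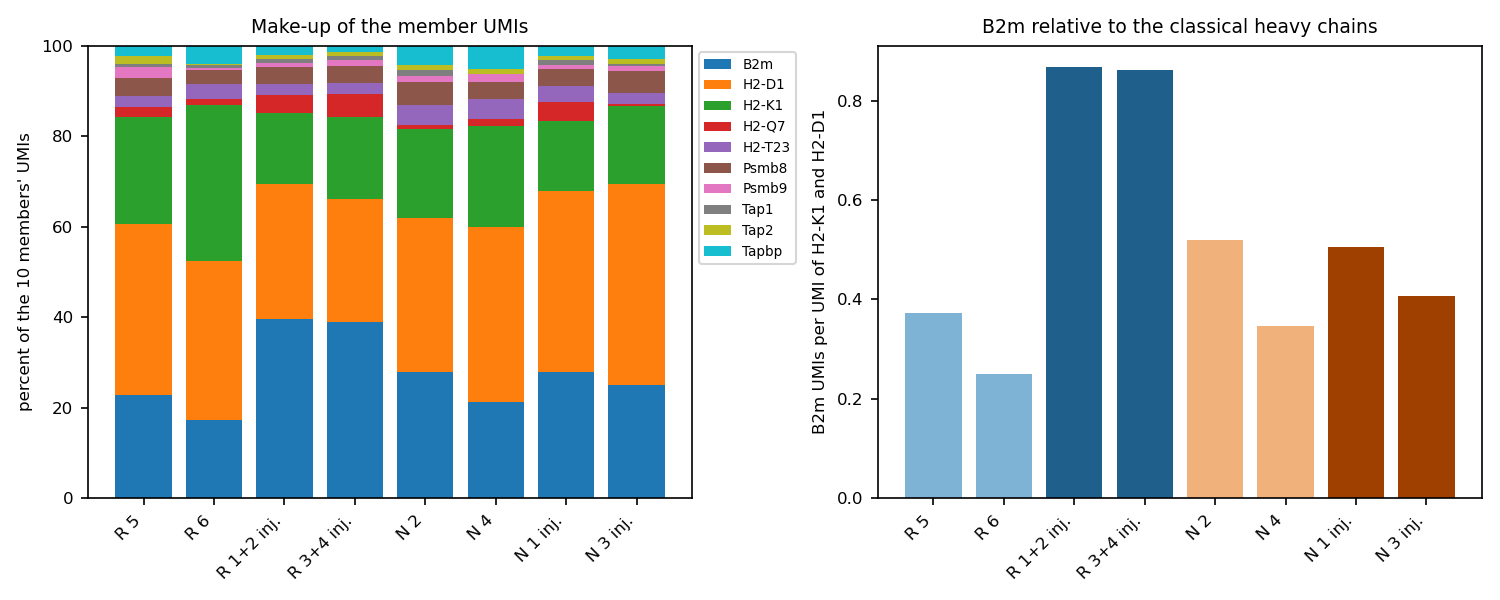
Left, share of the 10 members' UMIs taken by each gene (y axis, percent) in each library (x axis; R, retina; N, optic nerve; inj., injured). Right, B2m UMIs per UMI of H2-K1 and H2-D1. The injured retina pools stand at 0.867 and 0.860, and the other 6 libraries between 0.249 and 0.520.

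Within the injured retina pools, the members could be compared between Cd3 cells and the other cells of the same pool. B2m was lower in Cd3 cells, at 1852 against 2336 CPM in pool 1 and 2 and 1411 against 3288 CPM in pool 3 and 4 (168 and 64 UMIs in Cd3 cells). By edgeR with pool as a block its log2 difference was -1.29 ± 0.26 (adjusted p = 0.00027). H2-K1 was at 1654 against 865 CPM and 1874 against 1329 CPM, Psmb8 at 408 against 205 CPM and 441 against 259.8 CPM, and H2-Q7 at 617 against 198 CPM and 485 against 369 CPM. Tap1 (77.2 against 46.6 CPM and 110.2 against 64.0 CPM), Psmb9 (154 against 46.6 CPM and 132 against 97.9 CPM) and H2-T23 (243 against 143 CPM and 198 against 181 CPM) ran the same way. In CPM 6 of 10 members were thus higher in the Cd3 cells of both pools and 2, B2m and Tapbp, lower, where 49.2% and 30.4% of genes tested were. The Cd3 cells held 6.38% and 14.6% of the pools' UMIs, with 17.5% and 18.3% of the H2-Q7 UMIs and 5.13% and 6.83% of the B2m UMIs.

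Which members were called in Cd3 cells turned on the scaling. TMM, which assumes that most genes are alike, set factors of 1.18 and 1.3 for Cd3 cells and 0.804 and 0.812 for the other cells, and moved the median log2 difference of all genes from 0.45 on plain UMI totals to -0.16. With TMM 0 of 10 members were higher and 2 lower, B2m and Tapbp (-1.46 ± 0.52, edgeR adjusted p = 0.025, from 6 and 3 UMIs in Cd3 cells), where 16.2% of 3121 genes were higher and 25.2% lower. On plain totals 3 were higher and 1 lower, where 27.3% and 16.4% of genes were: H2-K1 (0.79 ± 0.21, edgeR adjusted p = 0.0061), H2-Q7 (1.17 ± 0.35, 0.013) and Psmb8 (0.96 ± 0.34, 0.031) were higher, and B2m (-0.67 ± 0.21, 0.017) was lower. H2-D1 stood at -0.55 ± 0.24 with TMM (edgeR adjusted p = 0.074) and at 0.06 on plain totals. B2m was the only member called under both scalings, and lower in each. Median depth was 4527 UMIs in Cd3 cells and 13872 in the other cells of pool 1 and 2, and 1856 and 6196 in pool 3 and 4.

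**Figure D4:**
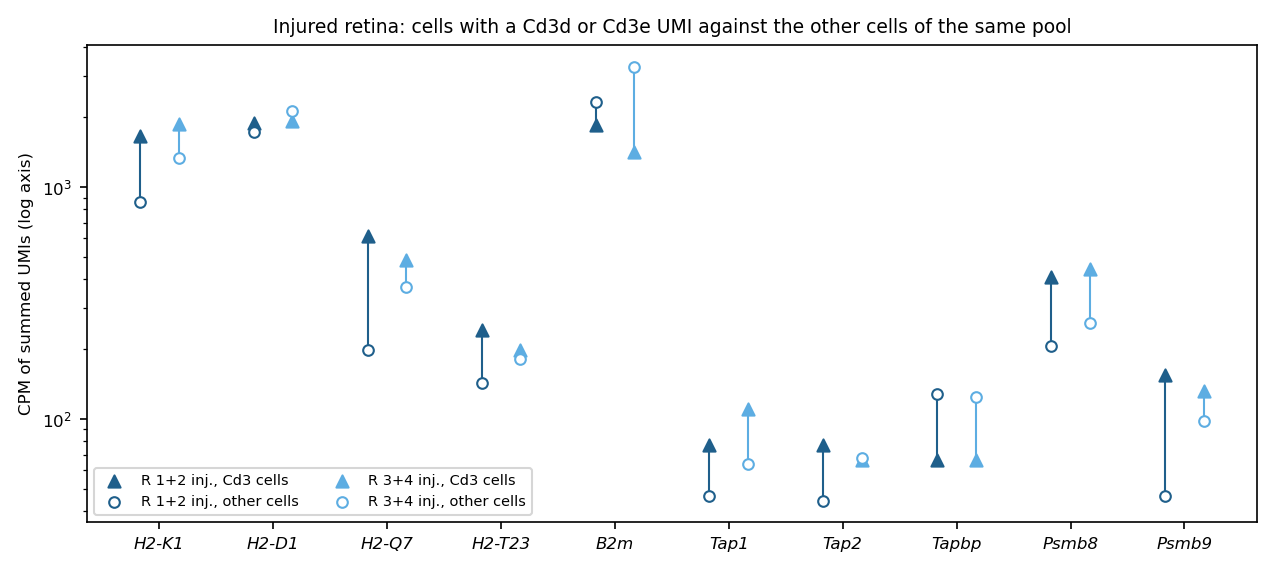
CPM of summed UMIs (y axis, log scale) for each member (x axis) in Cd3 cells (triangles) and the other cells (circles) of each injured retina pool, joined by a line. B2m and Tapbp are lower and H2-K1, H2-Q7, H2-T23, Tap1, Psmb8 and Psmb9 higher in the Cd3 cells of both pools.

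In optic nerve none of the 10 members passed after crush, where 0.635% of the 5043 genes tested did (32 genes, limma on the mean ln value per library, the unit in which the authors deposited optic nerve cells). By limma 2 members had an unadjusted p under 0.05 (B2m 0.022, H2-D1 0.021). By edgeR on counts recovered from those values 1 member did, and 0 passed among 0.386% of 5705 genes called. B2m stood at 1625 and 1404 CPM in injured libraries 1 and 3 and at 1193 and 868 CPM in uninjured libraries 2 and 4. H2-D1 stood at 2322 and 2492 CPM against 1457 and 1593 CPM. In both genes each injured library lay above each uninjured one. The differences of mean ln values were 0.60 ± 0.24 for B2m and 0.56 ± 0.22 for H2-D1 (limma adjusted p = 0.48 for each), and on the log2 scale 0.76 ± 0.37 and 0.90 ± 0.33 (edgeR adjusted p = 0.43 and 0.29).

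H2-K1 in optic nerve had overlapping groups, at 897 and 961 CPM in injured and 837 and 915 CPM in uninjured libraries (difference of mean ln values 0.18 ± 0.26, limma adjusted p = 0.96). Psmb8 was at 223 and 269.7 CPM in injured and 219 and 155 CPM in uninjured libraries, Tapbp at 129 and 170.0 CPM against 185 and 214 CPM, and Tap2 at 59.6 and 54.6 CPM against 48.4 and 47.6 CPM. Psmb8 and Tap2 were higher and Tapbp lower in each injured than in each uninjured library, by margins that did not pass. Tap1 was at 56.5 and 32.3 CPM after crush and 51.2 CPM in uninjured library 2, and 0 UMIs were counted among the 84121 of uninjured library 4, which allows up to 35.7 CPM. Psmb9 and H2-T23 had overlapping groups, at 53.3 to 71.3 CPM and 134 to 204 CPM over the 4 libraries. In all, 4 members were higher and 1 lower in both injured libraries, where 14.5% and 24.3% of genes tested were. Oligodendrocyte markers (8 of 8 with a UMI) summed to 1192 to 5880 CPM in injured and 8072 to 11576 CPM in uninjured optic nerve, endothelial markers (14 of 14) to 87.9 to 219 CPM and 359 to 4315 CPM, and astrocyte and Muller glia markers (5 of 5) to 440 to 825 CPM and 1207 to 1854 CPM. Neutrophil markers summed to 3.1 to 19.5 CPM in injured and 11.9 to 751.4 CPM in uninjured optic nerve. In uninjured library 4, 2 endothelial-like cells held 30.3% of the UMIs. B2m stood at 667 CPM in these 2 cells and 955 CPM in the other cells of library 4. H2-D1 stood at 1019 against 1842 CPM there, and H2-K1 at 1059 against 853 CPM. With Cd3 and endothelial-like cells left out of every library, limma again called no member after crush. The part of the other cell types in the values was not tested.

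Added over the 10 members, class I presentation transcripts took 0.582% and 0.561% of all UMIs in injured optic nerve libraries 1 and 3 and 0.428% and 0.410% in uninjured libraries 2 and 4. In retina the sums were 0.583% and 0.773% in injured pools and 0.602% and 0.640% in uninjured libraries. The injured optic nerve libraries lay above the uninjured ones, and the retina groups overlapped. H2-D1 made up 39.9% and 44.4% of the members' UMIs in injured optic nerve libraries 1 and 3, and B2m 27.9% and 25.0%. Neither gene passed after crush there. Of the 10 members, 4 were higher and 1 lower in CPM in both injured optic nerve libraries, where 14.5% and 24.3% of genes tested were. No test was made of the sums.

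H2-Q7 differed more between the injured optic nerve libraries than between groups. It was at 248 CPM (79 UMIs) in library 1 and 32.7 CPM (171 UMIs) in library 3, around 39.8 and 59.4 CPM in uninjured libraries 2 and 4. Its neighbour H2-Q6 was at 141 and 9.2 CPM in the same injured libraries, and H2-Q4, another Q-region heavy chain, at 166 and 58.6 CPM. All 3 were thus lower in library 3 than in library 1. In retina H2-Q6 was at 148 and 180.1 CPM in injured and 147 and 106 CPM in uninjured libraries (log2 fold change 0.27 ± 0.35, edgeR adjusted p = 0.68), and H2-Q4 at 134 and 187 CPM against 210.1 and 158 CPM (-0.30 ± 0.34, edgeR adjusted p = 0.56). How the counting divided reads between these copies was not tested.

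**Figure D5:**
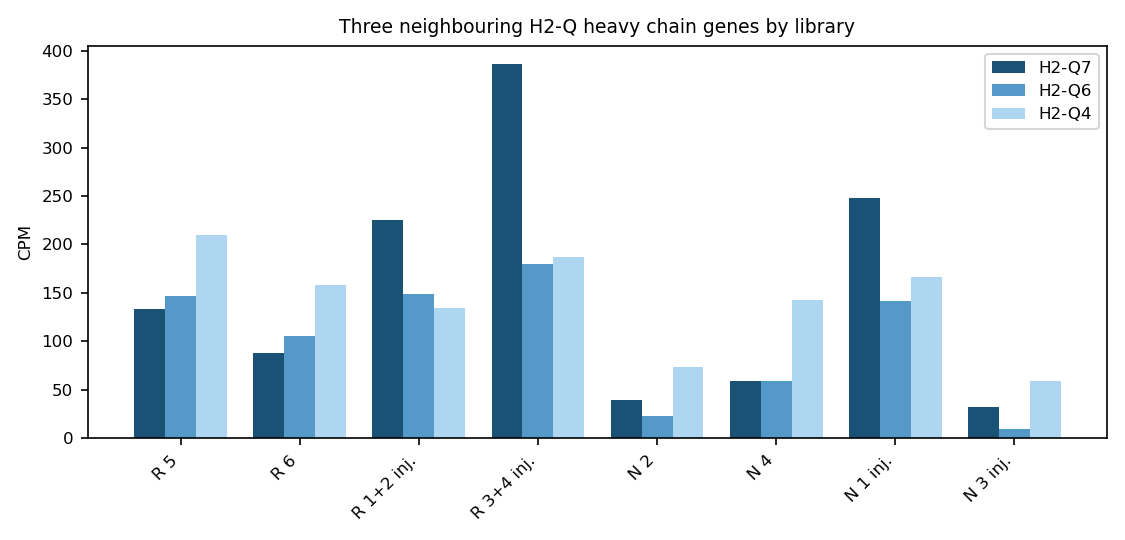
CPM (y axis) of H2-Q7 and the neighbouring heavy chain genes H2-Q6 and H2-Q4 in each library (x axis; R, retina; N, optic nerve; inj., injured). H2-Q7 reaches 386 CPM in injured retina pool 3 and 4 and 248 CPM in injured optic nerve library 1, and stands at 32.7 CPM in injured optic nerve library 3.

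The effect of crush was not shown to differ between the tissues for any member. The interaction test of limma called 0 of 10 members (2 at an unadjusted p under 0.05) and 6.48% of 5043 genes. The smallest p-values belonged to H2-Q7, whose difference of mean ln values was lower in optic nerve by -0.41 ± 0.17 (limma adjusted p = 0.15), and H2-D1, whose difference was higher in optic nerve by 0.70 ± 0.31 (limma adjusted p = 0.18). For B2m the interaction was 0.01 ± 0.34 (limma adjusted p = 0.98).

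Between tissues, members were called lower in optic nerve on the mean ln scale only. By limma B2m (-0.88 ± 0.24), H2-K1 (-0.79 ± 0.26) and H2-Q7 (-0.74 ± 0.12) were lower in injured optic nerve than in injured retina (limma adjusted p = 0.022, 0.048 and 0.0012), 3 of 10 members where 15.6% of genes were lower and 0.754% higher. Without Cd3 cells limma called 2 of 10 members lower there, H2-K1 not among them, where 1022 of 5260 genes were lower and 27 higher. Between uninjured tissues H2-K1 (-1.29 ± 0.26), H2-D1 (-1.05 ± 0.22), B2m (-0.89 ± 0.24) and Psmb8 (-0.54 ± 0.16) were lower in optic nerve (limma adjusted p = 0.0036, 0.0051, 0.022 and 0.035), 4 of 10 members where 10.9% of genes were lower and 1.84% higher. Median depth was 1078 to 2060.5 UMIs per cell in optic nerve and 3853 to 12989 in retina, and the mean of ln(1 + scaled count) is lower at lower depth for the same CPM. With cells thinned to 1000 UMIs limma called 0 members in either comparison (1 and 3 at an unadjusted p under 0.05), among 0.555% and 2.66% of genes. By edgeR on recovered counts 0 members were called too (0 and 1 unadjusted), among 9.2% and 3.26% of genes. In CPM, H2-K1, H2-D1 and H2-Q7 were lower in both uninjured optic nerve libraries than in both uninjured retina libraries and 0 members were higher, where 20.2% and 26.8% of genes were. Between injured tissues B2m was lower in both optic nerve libraries, and H2-D1 and Tapbp were higher, 1 and 2 members where 31.7% and 22.2% of genes were. The ratio of mean CPM, optic nerve over retina, was 0.48 for H2-K1, 0.67 for H2-D1 and 0.45 for H2-Q7 without injury, and 0.57 for B2m and 1.26 for H2-D1 after it. H2-K1, B2m, Psmb9 and H2-Q7 kept their sign in all 7 alternatives of each comparison. Most of these alternatives used the same mean ln values, so a kept sign adds little.

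The share of cells with a UMI was compared at an expected depth of 1000 UMIs per cell, leaving out 1 shallower cell in retina and 9 to 201 in each optic nerve library. B2m was then expected in 84.3% and 85.1% of cells in injured retina pools and 69.6% and 68.1% in uninjured libraries (unthinned 98.2% and 98.2%, 93.5% and 100%). H2-Q7 was expected in 22.4% and 26.2% against 12.0% and 8.1%, and in 18.05% and 22.02% of the cells of the pools without Cd3 cells. In optic nerve B2m was expected in 66.2% and 65.0% of cells after crush and 53.3% and 47.2% without it, and H2-D1 in 77.2% and 79.6% against 59.7% and 62.4%. These groups did not overlap. Tapbp was expected in 10.8% and 9.2% of cells of injured retina pools against 12.4% and 23.96%, and in 15.7% and 16.7% of optic nerve cells after crush against 20.5% and 29.1%. In retina 3 members (B2m, Tap1 and H2-Q7) were higher in both injured pools and 1 (Tapbp) lower, where 32.9% and 30.3% of genes tested were. In optic nerve 5 (H2-K1, H2-D1, B2m, Psmb8 and Psmb9) were higher and 1 (Tapbp) lower, where 17% and 25.2% were. At 1000 UMIs the shares of Tap1, Tap2 and Psmb9 stood between 0% and 14.7% in all 8 libraries. Unthinned they reached 51.6% (Psmb9 in uninjured retina library 5). No cell class known to lack class I transcripts was at hand, so the background of free RNA in these shares was not measured.

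Other genes of the pathway were read from 4 lists, with a list of class II genes beside them. Of 20 further class I heavy chains 6 could be tested in retina, and 0 rose or fell (median log2 fold change 0.29). H2-T22, a nonclassical heavy chain bound by some gamma delta T cells, was at 52.8 and 86.8 CPM in injured pools and 28.0 and 17.6 CPM in uninjured libraries (1.34 ± 0.65, edgeR adjusted p = 0.16). Of 8 further proteasome genes 7 were tested and 0 changed (median -0.32). Psme1, a subunit of the PA28 activator, stood at 0.68 ± 0.38 (edgeR adjusted p = 0.22) and its partner Psme2 at -0.65 ± 0.39 (0.26). Of 10 loading and trimming genes 5 were tested and 1 rose, Lnpep (2.14 ± 0.61, edgeR adjusted p = 0.031), which encodes an endosomal aminopeptidase linked to cross-presentation. The chaperone genes Canx (-0.63 ± 0.32, edgeR adjusted p = 0.18) and Calr (-0.47 ± 0.37, 0.40) did not pass.

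Regulators of class I transcription and interferon signalling gave 9 testable genes of 16 in retina, with 2 that rose and 1 that fell, where 9.99% of all genes rose and 9.72% fell. Their median log2 fold change was 0.93, against 0.07 over all genes, and 0.61 over the 8 that could be tested without Cd3 cells. On cells thinned to 1000 UMIs limma called 2 of 13 higher and 0 lower. Jak1, a kinase of the interferon receptors, rose by 1.5 ± 0.35 (edgeR adjusted p = 0.013), and Ifngr1, the ligand-binding chain of the interferon gamma receptor, rose by 0.93 ± 0.27 (0.034). Ifngr2, the signalling chain of the same receptor, fell by 1.54 ± 0.34 (edgeR adjusted p = 0.010). The 2 chains of this receptor thus moved in opposite directions. Of 7 class II genes 6 were tested, and 0 passed (median 1.74), while 1 rose on plain totals by edgeR and 4 rose by limma on cells thinned to 1000 UMIs. H2-Aa, a class II alpha chain, had a log2 fold change of 2.23 ± 0.84 (edgeR adjusted p = 0.081), with 0 CPM in uninjured library 6.

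In optic nerve 0 genes passed in any of the 5 lists after crush, by limma on 6 further heavy chains, 7 proteasome, 8 loading and trimming, 13 regulator and 6 class II genes, with medians of the ln difference between -0.12 and 0.12. At an unadjusted p under 0.05 there were 0, 1, 2, 1 and 0 in those lists. The smallest p-values belonged to Stat2 (-0.20 ± 0.06, limma adjusted p = 0.31), a transducer of type I interferon signals, and Psmb6 (0.49 ± 0.16, limma adjusted p = 0.31), the constitutive subunit that Psmb9 replaces. On the mean ln scale the interaction test called Jak1 (-0.87 ± 0.20, limma adjusted p = 0.019), Ifngr2 (0.87 ± 0.20, 0.021), Stat2 (-0.39 ± 0.09, 0.022), Lnpep (-0.56 ± 0.13, 0.023), H2-Aa (-1.41 ± 0.29, 0.012) and H2-Eb1 (-1.37 ± 0.29, 0.015), the last a class II beta chain. For Ifngr2 the difference after crush was higher in optic nerve than in retina, and for the other 5 it was lower. None of the 6 passed by edgeR on recovered counts (adjusted p from 0.059 for Ifngr2 to 0.52 for Jak1) or by limma on cells thinned to 1000 UMIs (from 0.14 for H2-Aa to 0.70 for Lnpep), where 0 genes were called in any of the 5 lists. Stat2 had 0 UMIs in both uninjured retina libraries.

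In Cd3 cells of injured retina 6 of 6 class II genes were lower under both scalings, and the counts of the other lists differed between them. With TMM 3 of 7 proteasome genes, 3 of 4 loading genes and 1 of 4 further heavy chains were lower and 0 higher, and regulators had 3 higher and 4 lower of 11, where 16.2% of all genes were higher and 25.2% lower. On plain totals 1 proteasome gene was higher and 0 lower, 1 loading gene was lower, 2 further heavy chains were higher and 1 lower, and 5 regulators were higher and 1 lower, where 27.3% of all genes were higher and 16.4% lower. Nlrc5, the transactivator of class I genes, stood at 3.81 ± 0.72 with TMM (edgeR adjusted p = 0.0001). Irf8, a factor of myeloid cells, stood at -3.07 ± 0.54 (edgeR adjusted p = 5.0e-05).

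The 10 members did not share a single pattern over the 8 libraries. The correlation of each member's log2(CPM + 10) with the members' mean profile, to which it contributes, was highest for Psmb8 (Pearson r = 0.75), B2m (0.72), H2-Q7 (0.71) and Tap1 (0.69), was 0.61 for H2-D1 and 0.51 for H2-K1, and was 0.04 for H2-T23 and -0.58 for Tapbp. Tapbp thus ran against the mean profile. Among 2726 other genes with a mean of at least 50 CPM, those most like the mean profile were Bcl10 (r = 0.88), Zmynd8 (0.86), Rab8b (0.84), Bmp2k (0.84) and Ube2h (0.84). These coefficients are over 8 libraries that share groups and depth, and are a description with no p.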

How the data were processed

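Single cells, all labelled retinal microglia or macrophages, were captured with a 10x 3' version 2 kit. Per the submitters' processing notes, bcl2fastq 2.17.1.14, Cell Ranger 1.3, Seurat 4.0.3 and build mm10 were used. Per the series' design text, batches were integrated with harmony and cells with 200 to 6500 genes were kept. The 1168 cells stated equal those of the deposited table. Retina cells were deposited as raw UMI counts. Optic nerve cells were deposited by the authors as the natural log of 1 plus 10000 times the count over the cell's total. All 1374534 values above 0 gave whole UMI counts within 0.01. Recovered counts summed to a median of 96.6% (lowest 65.5%) of the total by which a cell had been scaled. The counts recovered this way were used for CPM and for edgeR as an alternative. Uninjured retina had 0 UMIs in the last 24183 of 52181 entries. Tests between groups therefore used the 27998 entries that all groups could hold (0.484% of the other groups' UMIs lie outside). The Cd3 test, within injured retina, was not limited to these entries. Symbols were matched for 31394 of 31833 Ensembl entries. No doublet caller was run, and 2 barcodes occurred in 2 libraries each.

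Retina injury was tested with edgeR 4.0.16 (quasi-likelihood, TMM, filterByExpr, summed counts of 4 libraries). Optic nerve injury, the interaction and the tissue comparisons used limma 3.58.1 with a trend on mean ln values of 8 libraries, for genes seen in at least 10% of cells. DESeq2 1.42.0 was an alternative, and R 4.3.3 and Python 3.11.15 were used. Adjusted p-values are Benjamini-Hochberg over all genes tested, called under 0.05. The fits were also run on simulated data, in which each optic nerve cell had its library's median depth. That run cannot show how the fits handle a spread of depth between cells, and no result here rests on it. The members, the gene lists and the rule for named genes (all 10 members, up to 3 genes of smallest p per list, and the 5 genes most like the members' mean profile) were chosen with earlier results of these data known. Alternatives were other filters, scalings, tools, pseudocounts, cells and left-out libraries. Counts of fewer than 3 UMIs were not read as absence. Intervals and floors cover counting error only. Annotation was GENCODE M21, and promoter sequences came from RefSeq.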

Additional observations from a re-analysis of the deposited data

How the results depend on the processing

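No paired analysis was possible because the injured retina columns are pools and the groups share no replicate numbers that mark an animal. In the Cd3 comparison, without the replicate block (the pool), 2 members and 1312 genes were called, against 2 and 1292 with it. In retina, 1 member was called without Cd3 cells, 1 also without endothelial-like cells, 1 by DESeq2 (B2m), 1 by limma on ln values (H2-Q7), 0 on thinned cells and 0 to 2 with a library left out. All genes called there numbered 289 by DESeq2, 203 on thinned cells and 428 without pool 1 and 2 and 415 to 699 over all libraries left out in turn. In optic nerve 0 members were called under every alternative run. Genes called there numbered 20 in deep cells, 16 on log2(CPM + 10), 6 on log2(CPM + 1), 1 without a filter, 0 on optic nerve libraries alone, 63 by DESeq2, 1 on thinned cells, 20 by edgeR without Cd3 cells and 9 to 53 with a library left out. For the interaction they numbered 49 by edgeR, 143 in deep cells, 110 and 79 on those CPM scales, 28 without a filter, 22 on thinned cells and 111 without retina pool 1 and 2, 88 without injured optic nerve 3 and 76 to 597 over all. Injured tissues gave 0 members and 525 genes by edgeR, 0 and 28 on thinned cells, and 1 member and 194 to 357 genes with a library left out (231 without retina pool 1 and 2, 253 without injured optic nerve 1). Uninjured tissues gave 0 and 186 by edgeR, 0 and 134 on thinned cells, and 2 members and 285 to 1001 genes with a library left out. Cd3 cells gave 1 member and 397 genes by DESeq2, and 4 members on plain totals.

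A turned sign was counted where the value had exceeded its SE. It occurred in retina without uninjured library 5 (Tap2 1.91, range -1.11 to 1.91; Psmb9 1.34, range -1.15 to 1.34) and on thinned cells (Tap2 0.062, Psmb9 0.035). In the interaction by edgeR H2-Q7 was 0.26. Between injured tissues edgeR gave H2-D1 0.47, Psmb8 0.13 and H2-T23 0.13, and thinned cells Tap1 0.028. Between uninjured tissues edgeR gave Tap1 0.22 and H2-T23 0.062, thinned cells Tap1 0.046 and H2-T23 0.019, and leaving out uninjured optic nerve 4 Tap1 0.024 (range -0.20 to 0.024). In Cd3 cells H2-D1 was 0.062 on plain totals. The cause was not tested for any of these. Tap1, Tap2 and Psmb9 had 1 to 22 UMIs in each uninjured retina library, so 1 library moves their values. The thinned, plain total and RLE fits, and edgeR without Cd3 cells in optic nerve, were chosen after seeing the data.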

Other observations

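Cells that the authors' deposited labels mark as positive for Rbpms, a marker of retinal ganglion cells, could be set beside the other cells of the same library in 4 libraries with at least 5 of them. B2m stood at 2526 CPM in them against 2237 CPM in injured retina pool 1 and 2, at 1353 against 1385 CPM in uninjured retina 5, at 476 CPM (9 UMIs) against 1233 CPM in uninjured optic nerve 2 and at 1312 against 1417 CPM in injured optic nerve 3. Psmb8 stood, in the same order, at 247 against 209 CPM, 262 (6 UMIs) against 234 CPM, 265 (5 UMIs) against 217 CPM and 277 against 269 CPM. It was thus higher in the Rbpms-positive cells of 4 of 4 libraries, by small margins, and each other member was mixed in direction. The share of all genes with 1 direction in 4 of 4 libraries was not counted. Median depth was 18311 UMIs in Rbpms-positive cells and 12418 in the others in pool 1 and 2, and 17687.5 and 1977.5 in injured optic nerve 3. In uninjured retina 5 it was 4476 and 4218, and in uninjured optic nerve 2 it was 2433.5 and 1834. No test was made of these values.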
